A study of Mus musculus with 6 samples.

Results

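The 37 genes described here copy DNA or prepare the cell for copying it. They were chosen by name as DNA replication and S-phase genes, and they made up 37 of the 15445 genes in the deposited count table. All 37 had a row, and all 37 passed the filter on low counts. RNA was sequenced from transgenic CD4+ T cells of 1 specificity, taken from the spleen of C57BL/6 mice on day 5 of an infection with lymphocytic choriomeningitis virus. Cells were sorted on CD4, on Thy1.1 and on CD25, a chain of the high-affinity receptor for interleukin-2, into a CD25-high group and a CD25-low group of 3 libraries each. Both groups carry the same transgene and come from infected mice, and there is no uninfected or unsorted group. The sources used here give neither the age of the mice nor the name of the transgene, and do not say whether animals were pooled. Because no label ties a library to an animal of its own, p-values below reflect library-to-library spread alone, some of which can be technical. The libraries of each group are numbered 1 to 3 in their labels, and a pair here means the CD25-high and the CD25-low library that carry the same number.

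Activated CD4+ T cells divide rapidly in the first days of a viral infection, and each division needs a full set of replication proteins. In G1 the origin recognition complex, with Cdc6 and Cdt1, loads the MCM helicase on DNA. At the start of S phase, Cdc45, Mcm10 and the GINS proteins turn that helicase on, polymerases alpha, delta and epsilon copy the strands, and PCNA holds the polymerases on the template. Transcription of many of these genes is controlled by E2F factors. These are released from the retinoblastoma protein and its relatives as G1 cyclins, cyclins E among them, and their kinases become active.

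Total counts ranged from 16787233 to 23567066 per library, of which mitochondrial ribosomal RNA took 29.3% to 35.3%. The T cell markers were abundant in every library: Cd3e, a chain of the T cell receptor complex, lay between 1177 and 1734 CPM (counts-per-million of the total counts), and Cd4 between 461 and 785. The B cell, CD8 and NK, and erythroid lists each summed to at most 4.99 CPM in any library, and the defining genes Ms4a1, Cd79a, Pax5 and Cd8a had no row. The 8 myeloid and dendritic markers, 4 of which had a row, summed to 32.3, 92.6 and 82.3 CPM in CD25-high libraries 1 to 3 and to 13.7, 40.1 and 50.05 in the CD25-low libraries. Most of that was Itgam, an integrin chain that activated lymphocytes can also carry, at 19.7 to 77.7 and 4.89 to 33.2, followed by Zbtb46 at 4.71 to 12.3 and 6.17 to 15.2. Lyz2 lay between 0 and 0.721, and Adgre1, Cd14, Flt3 and Siglech had no row. The part of these markers in the results on the replication genes was not tested.

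Promoter sequence is shown first, because E2F sites are what many of these genes are known to share. The windows run from 250 bases before to 50 bases after a transcription start, are credited to RefSeq on GRCm38.p6, and were found for 32 of the 37 genes. The words searched were TTTCCCGC, TTTCGCGC, TTTGCCGC and TTTGGCGC, which are forms of the E2F site, on both strands, with overlapping matches counted separately. The 6 windows below belong to Orc1, the largest subunit of the origin recognition complex, and to 5 of the 6 subunits of the MCM helicase. They are read 5′ to 3′ on the gene's own strand, with E2F matches in capitals, and were chosen because the helicase subunits work as 1 complex yet differ in these matches.

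Orc1: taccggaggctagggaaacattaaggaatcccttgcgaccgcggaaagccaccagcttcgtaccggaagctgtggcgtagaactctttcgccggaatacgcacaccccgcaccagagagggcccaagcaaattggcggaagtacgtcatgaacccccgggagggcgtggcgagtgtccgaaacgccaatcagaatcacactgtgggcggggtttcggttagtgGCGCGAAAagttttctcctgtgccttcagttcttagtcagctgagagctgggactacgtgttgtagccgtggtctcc

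Mcm2: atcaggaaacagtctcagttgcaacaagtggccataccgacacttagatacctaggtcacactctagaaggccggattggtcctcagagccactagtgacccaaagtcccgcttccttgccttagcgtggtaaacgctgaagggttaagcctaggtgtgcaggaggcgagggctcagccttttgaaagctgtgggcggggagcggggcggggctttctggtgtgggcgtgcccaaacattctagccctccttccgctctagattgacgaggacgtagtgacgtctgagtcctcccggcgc

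Mcm3: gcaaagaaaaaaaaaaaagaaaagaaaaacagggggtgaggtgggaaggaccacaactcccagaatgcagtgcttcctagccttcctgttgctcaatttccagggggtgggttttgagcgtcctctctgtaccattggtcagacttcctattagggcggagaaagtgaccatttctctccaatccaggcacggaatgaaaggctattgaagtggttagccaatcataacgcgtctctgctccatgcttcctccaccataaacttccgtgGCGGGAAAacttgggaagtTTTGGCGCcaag

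Mcm5: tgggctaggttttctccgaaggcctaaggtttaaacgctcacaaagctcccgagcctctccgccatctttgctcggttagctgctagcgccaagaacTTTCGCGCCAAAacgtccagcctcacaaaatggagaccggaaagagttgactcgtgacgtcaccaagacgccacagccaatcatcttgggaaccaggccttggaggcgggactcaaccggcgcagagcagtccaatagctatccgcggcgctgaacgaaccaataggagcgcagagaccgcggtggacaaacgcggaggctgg

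Mcm6: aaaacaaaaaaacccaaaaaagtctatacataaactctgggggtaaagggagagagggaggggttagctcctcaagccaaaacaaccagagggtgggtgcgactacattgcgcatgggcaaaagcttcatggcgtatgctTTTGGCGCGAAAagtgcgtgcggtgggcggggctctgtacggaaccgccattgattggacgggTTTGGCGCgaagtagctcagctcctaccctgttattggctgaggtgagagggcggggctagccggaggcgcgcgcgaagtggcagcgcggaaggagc

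Mcm7: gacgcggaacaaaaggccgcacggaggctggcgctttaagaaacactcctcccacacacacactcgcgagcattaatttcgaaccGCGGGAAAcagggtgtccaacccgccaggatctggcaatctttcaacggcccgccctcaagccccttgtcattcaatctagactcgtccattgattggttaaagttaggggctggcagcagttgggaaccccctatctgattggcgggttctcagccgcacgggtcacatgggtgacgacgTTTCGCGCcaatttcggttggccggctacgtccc

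The Orc1 window lies at chr4:108579204-108579503 on the plus strand, and its single match starts at base 224, counted from 1 at the window's 5′ end. The Mcm2 window at chr6:88898731-88899030 on the minus strand holds none of the 4 words. The Mcm3 window at chr1:20820263-20820562 on the minus strand holds 2 matches, which start at bases 270 and 289. The 2 matches of Mcm5, at chr8:75109259-75109558 on the plus strand, start at bases 98 and 102 and overlap, so that they read as 1 run of capitals. Mcm6, at chr1:128359656-128359955 on the minus strand, holds 3 matches starting at bases 141, 145 and 204, of which the first and the second overlap. The printed Mcm7 window at chr5:138171834-138172133 on the minus strand holds matches at bases 86 and 267, while the other Mcm7 window in the table holds none. Each window surrounds a RefSeq start site, with its last 50 bases after that site and the rest upstream of it. The gene coordinates used here come from another annotation and can start elsewhere. By these, the Mcm5 window ends before the gene start at 75109569. The printed Mcm7 window lies within the gene, which starts at 138172422 on the minus strand, so its matches are downstream of that start.

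An E2F word was present in 12 of the 32 genes with a window (37.5%), compared with 704 of 27025 genes of the whole table (2.605%) and with 476 of the 10223 that also had a row in the counts (4.656%). Besides the 5 genes shown with a match, it was found for E2f2, Cdc6, Cdt1, Pola1, Pold1, Rfc3 and Lig1. Among related lists it was found in 12 of 41 other replication genes (29.3%), in 6 of 12 E2F and retinoblastoma regulators and in 1 of 19 mitosis genes (5.26%). The word CCAAT, counted in the same windows as a second promoter element, had another distribution: 19 of the 32 replication genes held it (59.4%), 16 of the 19 mitosis genes (84.2%) and 42.6% of the genes with a row. The median GC content was 57.7% over the windows of the replication genes and 60.3% over those of all genes with a row. A match is a description of the letters and not a site shown to be bound.

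**Figure D1:**
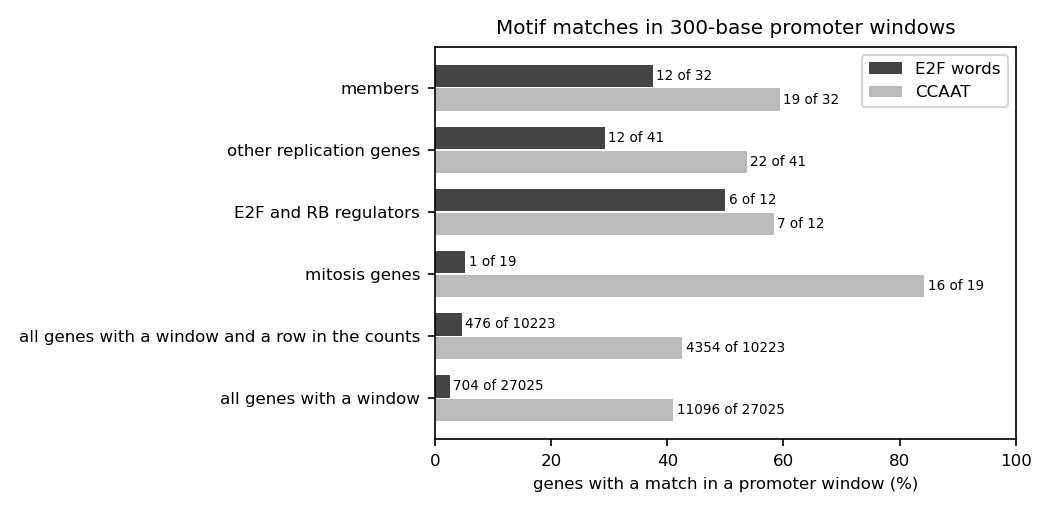
Share of genes (x axis, %) with an E2F word (dark bars) or CCAAT (light bars) in a promoter window, for 6 lists of genes (y axis), with the number of genes printed at each bar. The E2F words reach 37.5% for the replication genes and 4.656% for all genes with a window and a row in the counts, and CCAAT is highest for the mitosis genes.

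Which of these genes differ between T cells that carry much CD25 and those that carry little is the comparison of the design. From here on CPM is computed after TMM scaling of the tested genes. Differences are given as log2 fold changes of CD25-high relative to CD25-low with their standard error (SE), from edgeR's quasi-likelihood test fitted on 12987 genes with adjustment over all of them. None of the 37 genes passed an adjusted p of 0.05, where 0.655% of all tested genes did. The lowest adjusted p was 0.273, for Mcm2. DESeq2 and limma voom also called 0 of the 37, while the fit with the library number as a block called 1, Mcm2 (adjusted p = 0.0486). At an unadjusted p under 0.05, 4 genes were higher by edgeR (Orc1, Mcm2, Gins2 and Rrm2) and 0 lower, which is 10.8% of the 37 beside 4.69% of all tested genes that were higher at that level. DESeq2 had 5 of the 37 at that level and limma voom 4. The share of all tested genes is not given for these fits, so no excess can be read from their counts.

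Most of the estimates lay in 1 direction, although none was called without the block and 1 with it. The log2 fold change was positive for 34 of the 37 genes (91.9%, compared with 50.8% of all tested genes), with a median of 0.24 beside 0.01 over all genes. The 3 negative estimates belonged to Rpa1, Rfc5 and Fen1 and were within 1 SE of 0. In 6 of the 37 genes (16.2%) every CD25-high library exceeded every CD25-low library, where 7.41% of all tested genes did so, and in 0 genes were all CD25-high libraries lower, where 9.54% of all tested genes were. These genes are known to be regulated together, so 34 positive estimates are not 34 independent observations. Summed over the 37 genes, the CPM was 4648, 5597 and 5612 in CD25-high libraries 1 to 3, and 4839, 4035 and 4357 in the CD25-low libraries. CD25-high libraries 2 and 3 were the highest, while CD25-high library 1 lay below CD25-low library 1, so the groups overlapped in the sum. The median log2 of CPM + 0.5 over the 37 genes did not overlap. It was 6.45, 6.53 and 6.52 in CD25-high libraries 1 to 3 and 6.38, 6.01 and 6.19 in the CD25-low libraries. The libraries numbered 1 were the nearest to each other, and the pooled within-group SD of this median was 0.135. In bulk RNA a larger number of cells in S phase and more RNA of these genes in each cell cannot be told apart.

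**Figure D2:**
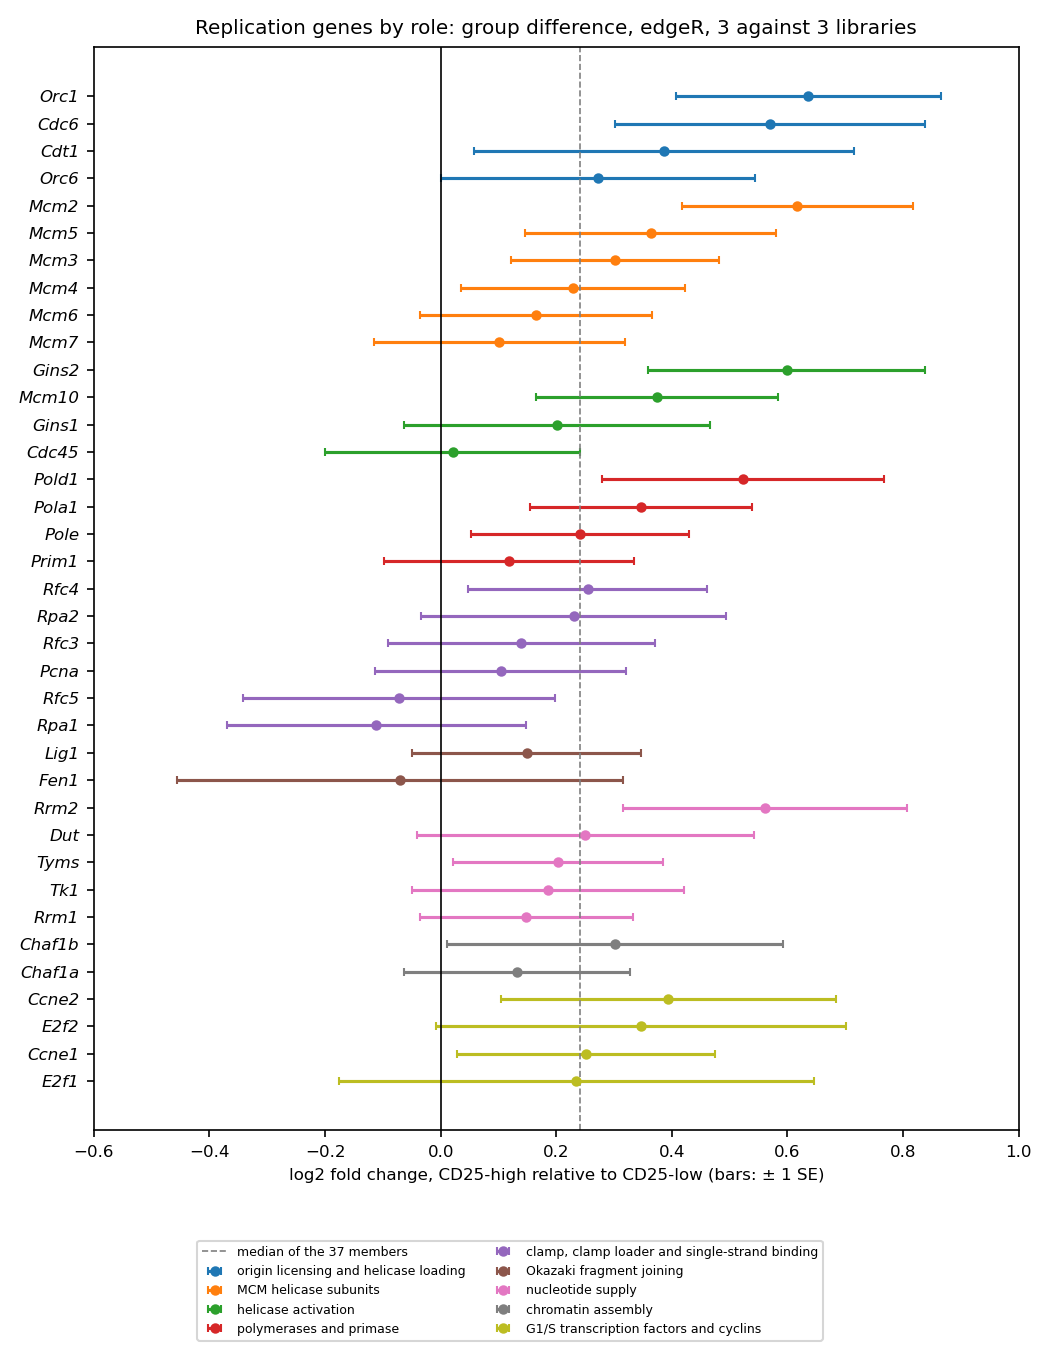
Log2 fold change of each of the 37 genes (x axis, CD25-high relative to CD25-low, bars ± 1 SE from edgeR, 3 against 3 libraries), grouped by colour and order according to role. Of the 37 points 34 lie right of 0, and the dashed line marks the median of 0.24.

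Origin licensing and helicase loading had the highest median of the roles, 0.48 over 4 genes, all with a positive estimate. Orc1 (chr4:108579423-108614833, plus strand) had 52.7, 43.1 and 51.6 CPM in CD25-high libraries 1 to 3 and 36.6, 25.4 and 32.8 in the CD25-low libraries. The groups did not overlap, each CD25-high library exceeded the CD25-low library of its number, and the log2 fold change was 0.64 ± 0.23 (SE, adjusted p = 0.332). Cdc6, the ATPase that helps to load the helicase, had 46.0, 67.0 and 89.6 CPM against 48.8, 37.6 and 50.004. Its CD25-high libraries 2 and 3 were above all CD25-low libraries and its library 1 was not, and the difference of 0.57 ± 0.27 did not pass (adjusted p = 0.471). Cdt1, the partner of Cdc6 in loading, had 34.9, 71.9 and 48.9 CPM against 56.3, 28.4 and 34.5, a difference of 0.39 ± 0.33 (adjusted p = 0.731). Here CD25-low library 1 exceeded 2 of the 3 CD25-high libraries. Orc6, the smallest subunit of the recognition complex, had a difference of 0.27 ± 0.27 (adjusted p = 0.781), and CD25-low library 1 held its highest value, 99.8 CPM.

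The 6 subunits of the MCM helicase all had positive estimates, from 0.10 for Mcm7 to 0.62 for Mcm2, with a median of 0.27. Mcm2 (chr6:88883474-88898780, minus strand) had 212, 168 and 162 CPM in CD25-high libraries 1 to 3 and 122, 102 and 129 in the CD25-low libraries. The groups did not overlap, and the difference was 0.62 ± 0.20 (adjusted p = 0.273). With the library number as a block, Mcm2 rose by 0.61 ± 0.16 and passed (adjusted p = 0.0486), the single call among the 37 genes, where 1.73% of all tested genes were called higher in that fit. The call was lost when pair 1 was left out (adjusted p = 0.149) or pair 2 (0.245) and held without pair 3 (0.0387). At an unadjusted p under 0.05, 7 of the 37 genes were higher in the blocked fit (18.9%, compared with 8.68% of all tested genes), and 35 of the 37 estimates were positive. Mcm3 had 197, 216 and 237 CPM in the CD25-high libraries and 191, 167 and 169 in the CD25-low libraries, without overlap but with a gap of a few CPM between the nearest libraries, and its difference was 0.30 ± 0.18 (adjusted p = 0.589). Mcm5 differed by 0.36 ± 0.22 (adjusted p = 0.589), Mcm4 by 0.23 ± 0.19, Mcm6 by 0.16 ± 0.20 and Mcm7 by 0.10 ± 0.22. For Mcm4, Mcm5, Mcm6 and Mcm7 the CD25-low library was the higher one in pair 1 and the lower one in pairs 2 and 3. Mcm2 and Mcm3 were higher in the CD25-high library of all 3 pairs. Subunits of 1 complex thus had estimates between 0.10 and 0.62, each with an SE near 0.2, and differences between subunits were not tested.

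The 4 genes of helicase activation had a median of 0.29. Gins2, a GINS subunit, had 70.5, 92.1 and 91.5 CPM against 48.0, 47.0 and 72.8, and its difference was 0.60 ± 0.24 (adjusted p = 0.388). Only CD25-low library 3 reached the range of the CD25-high libraries, and Gins2 was higher in all 3 pairs. In the annotation 67.3% of its exonic bases are shared with Gse1 on the opposite strand, and no source used here gives the strand setting of the counting. Gse1 had 36.1, 72.7 and 61.8 CPM against 32.2, 36.02 and 48.4, a difference of 0.55 ± 0.29, so reads of the pair cannot be told apart and the Gins2 value is uncertain. Mcm10, which binds the helicase as it opens DNA, had 70.1, 62.1 and 83.5 CPM against 50.5, 53.7 and 62.2, a difference of 0.37 ± 0.21 with all 3 pairs higher. Gins1 differed by 0.20 ± 0.26 and Cdc45, the helicase cofactor, by 0.02 ± 0.22.

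The polymerases and primase had positive estimates in 4 of 4 genes, and 3 of them, the polymerase genes, had no overlap between groups. In each of these 3 the gap between the nearest libraries was only a few CPM. Pold1, the catalytic subunit of polymerase delta, had 25.8, 33.4 and 31.9 CPM against 19.1, 19.6 and 24.7, a difference of 0.52 ± 0.24 (adjusted p = 0.469). Pola1, the catalytic subunit of polymerase alpha, had 191, 164 and 157 CPM against 121, 154 and 128, a difference of 0.35 ± 0.19 (adjusted p = 0.557). Pole, that of polymerase epsilon, had 152, 130 and 129 CPM against 103, 117 and 127, a difference of 0.24 ± 0.19 (adjusted p = 0.697). For Pola1 and Pole the largest of the 3 pair differences was that of pair 1. Prim1, the primase subunit that makes the RNA primer, had 169, 125 and 125 CPM against 135, 147 and 104, with overlap and a difference of 0.12 ± 0.22.

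Clamp, clamp loader and single-strand binding genes lay closest to 0 together with Okazaki fragment joining. The 6 clamp and single-strand binding genes had a median of 0.12, with 4 positive estimates, and 0 of them were higher in all 3 pairs. Pcna, the sliding clamp, had 215, 272 and 243 CPM against 287, 182 and 210, so that the highest value of all belonged to CD25-low library 1, and its difference was 0.10 ± 0.22 (adjusted p = 0.907). A processed copy, Pcna-ps2, had 1301 counts in all beside 27807 for Pcna, and reads may be split between them. The loader subunits Rfc4, Rfc3 and Rfc5 differed by 0.25 ± 0.21, 0.14 ± 0.23 and −0.07 ± 0.27. Rpa2 and Rpa1, subunits of the protein that coats single-stranded DNA, differed in sign, at 0.23 ± 0.26 and −0.11 ± 0.26, and the difference between them was not tested. Fen1, the nuclease that trims Okazaki fragments, had 32.7, 58.5 and 48.1 CPM in the CD25-high libraries and 82.6, 29.3 and 34.5 in the CD25-low libraries. Its CD25-low library 1 was the highest of all 6 and its CD25-low library 2 the lowest, and the group difference was −0.07 ± 0.39. In the annotation 78.8% of the exonic bases of Fen1 are shared with Gm10143 on the opposite strand, which had 32.0, 57.6 and 47.2 CPM against 81.3, 28.8 and 35.3, within 3 CPM of Fen1 in every library, so reads of the 2 genes cannot be told apart. Lig1, the ligase that seals the fragments, differed by 0.15 ± 0.20.

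The 5 genes of nucleotide supply all had positive estimates, with a median of 0.20. Rrm2 (chr12:24708241-24714146, plus strand), the regulated small subunit of ribonucleotide reductase, had 373, 640 and 580 CPM in the CD25-high libraries and 433, 284 and 363 in the CD25-low libraries. CD25-high libraries 2 and 3 exceeded all CD25-low libraries, and CD25-high library 1 lay below CD25-low library 1. The difference was 0.56 ± 0.25 (adjusted p = 0.435). Rrm1, the large subunit, differed by 0.15 ± 0.18. Dut, which removes dUTP, had 183, 263 and 279 CPM against 301, 145 and 163, a difference of 0.25 ± 0.29 (adjusted p = 0.820), and CD25-low library 1 was the highest of all 6. Tyms, thymidylate synthase, differed by 0.20 ± 0.18, and Tk1, thymidine kinase, by 0.19 ± 0.24. The chromatin assembly genes Chaf1b and Chaf1a, subunits of the factor that deposits histones behind the fork, differed by 0.30 ± 0.29 and 0.13 ± 0.20. Exons of Chaf1a share 52.5% of their bases with Ubxn6 on the opposite strand, so its value is uncertain as well. For 10 further genes, Ccne2 (17.4%), Rfc4 (12.7%), Orc1 (10.8%), Rfc5 (10.7%), Mcm7 (up to 7.3%), Orc6 (6.9%), Cdc45 (6.0%), Lig1 (5.8%), Tk1 (1.6%) and Pole (0.7%), the largest overlap with another gene on the opposite strand was smaller. Some of these neighbours had many counts, such as Eif4a2 beside Rfc4 (43525 in all) and Ints8 beside Ccne2 (15098). Their part in the values of Rfc4 and Ccne2 was not tested.

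**Figure D3:**
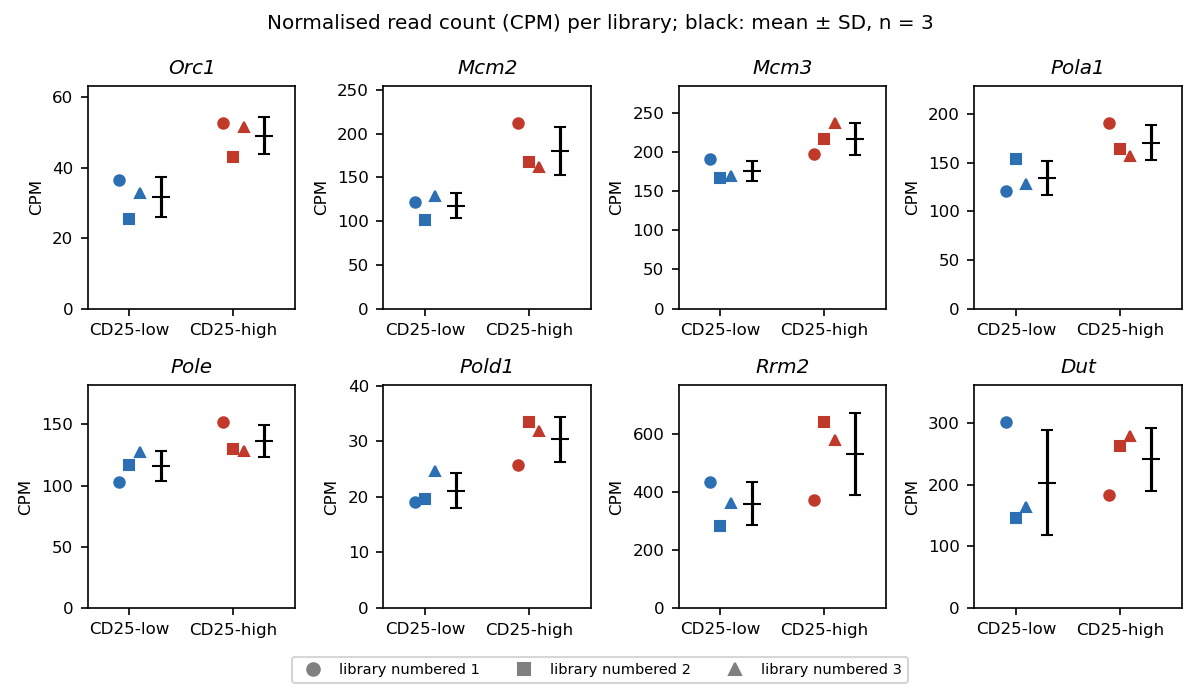
Normalised read count (CPM, y axis from 0) in each library for the 6 genes whose groups did not overlap and for Rrm2 and Dut, with CD25-low left and CD25-high right, marker shapes for the library number, and mean ± SD (n = 3) in black. In Rrm2 and Dut the circle of library 1 is higher in CD25-low than in CD25-high, while the other 2 numbers go the opposite way.

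Of the G1/S transcription factors and cyclins, 4 of 4 were higher in the CD25-high library of all 3 pairs, as were 3 of the 4 polymerase and primase genes and 20.4% of all tested genes. E2f2, an activating E2F, had 172, 357 and 330 CPM in CD25-high libraries 1 to 3 and 119, 274 and 282 in the CD25-low libraries. The libraries numbered 1 were the lowest of each group, so the group spread was wide and the difference of 0.35 ± 0.35 did not pass (adjusted p = 0.788). Without CD25-low library 1 it was 0.04, and without CD25-high library 1 it was 0.61. E2f1, the other activating E2F here, had 9.41, 13.3 and 21.9 CPM against 7.38, 12.8 and 17.7, a difference of 0.23 ± 0.41. Ccne2, a cyclin E, had 90.5, 54.6 and 50.2 CPM against 64.8, 38.4 and 45.5, a difference of 0.39 ± 0.29, with libraries numbered 1 the highest of each group. It was 0.08 without CD25-high library 1 and 0.63 without CD25-low library 1. Ccne1 differed by 0.25 ± 0.22.

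Both E2f2 and Ccne2 differed between library numbers. A fit with a term for libraries numbered 1 against those numbered 2 and 3 called E2f2 lower in libraries 1 (−1.11 ± 0.16, adjusted p = 0.00189) and Ccne2 higher (0.71 ± 0.19, adjusted p = 0.0349). This term was chosen because earlier results of these data had shown the libraries numbered 1 apart. Its calls describe that split and are no separate support for it. Of all tested genes, 3.98% were called lower and 3.19% higher for that term, and the other 35 of the 37 were not called. With library size as the only scaling, 1 of the 37 was called, lower in libraries 1. The share of all tested genes is not given for that scaling, so no excess can be read from this count.

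The CD25 difference of most of the 37 genes rested on pairs 2 and 3. Ratios were taken between the CD25-high and the CD25-low library of the same number, as log2 of CPM + 0.5. In pair 1 the ratio was above 0 for 16 of the 37 genes (43.2%, compared with 50.9% of all tested genes), in pair 2 for 35 (94.6%, against 49.7%) and in pair 3 for 34 (91.9%, against 50.6%). The median ratios were −0.06, 0.40 and 0.32. Pairs 2 and 3 were thus nearly uniform in direction and pair 1 was divided. All 3 pairs were higher for 12 genes (32.4%, compared with 20.4%) and all 3 lower for 0, where 20.3% of all tested genes were lower in all 3. The pattern of higher in pairs 2 and 3 and lower in pair 1 held for 20 of the 37 genes (54.1%) and for 11.8% of all tested genes.

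The ratios of Dut were −0.72, 0.85 and 0.77 in pairs 1 to 3, those of Rrm2 were −0.21, 1.17 and 0.68, and those of Cdt1 were −0.68, 1.32 and 0.50. Fen1 had the widest range, −1.32, 0.99 and 0.47. Mcm2, in contrast, had 0.80, 0.72 and 0.32, and Orc1 had 0.52, 0.75 and 0.64, so that both were higher in every pair. Within their own group, CD25-high library 1 was the lowest for 27 of the 37 genes (39.8% of all tested genes had their lowest CD25-high value there), CD25-low library 1 was the highest for 19 (background 36.3%), and CD25-low library 2 was the lowest for 22 (background 29.6%). Other measures also set the libraries numbered 1 apart: the 8 T cell markers summed to 2304 and 2383 CPM of total counts in them and to 2700 to 3496 in the other 4 libraries, Thy1 lay at 91.5 and 52.5 against 205 to 289, and mitochondrial ribosomal RNA was at 34.0% and 35.3%, the highest share of each group. The part of these in the pair pattern was not tested.

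A test of that contrast, added after the pairs were seen to differ, compared the CD25 difference in pair 1 with the mean of pairs 2 and 3. Because the contrast was picked from the same libraries, its counts restate the pair pattern and are no separate support for it. Pair 1 has 1 library per group, so the spread in this fit comes from the other 4 libraries. None of the 37 genes passed (5 of all tested genes did, 0.0385%). At an unadjusted p under 0.05 the difference was smaller in pair 1 for 9 genes (24.3%, compared with 4.63% of all tested genes) and larger for 0, and 28 of the 37 estimates were negative with a median of −0.40 beside 0.04 over all genes. The 4 lowest p-values belonged to Fen1 (−2.08 ± 0.39, adjusted p = 0.147), Dut (−1.53 ± 0.30, adjusted p = 0.175), Cdt1 (−1.63 ± 0.43, adjusted p = 0.294) and Rrm2 (−1.13 ± 0.31, adjusted p = 0.307).

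**Figure D4:**
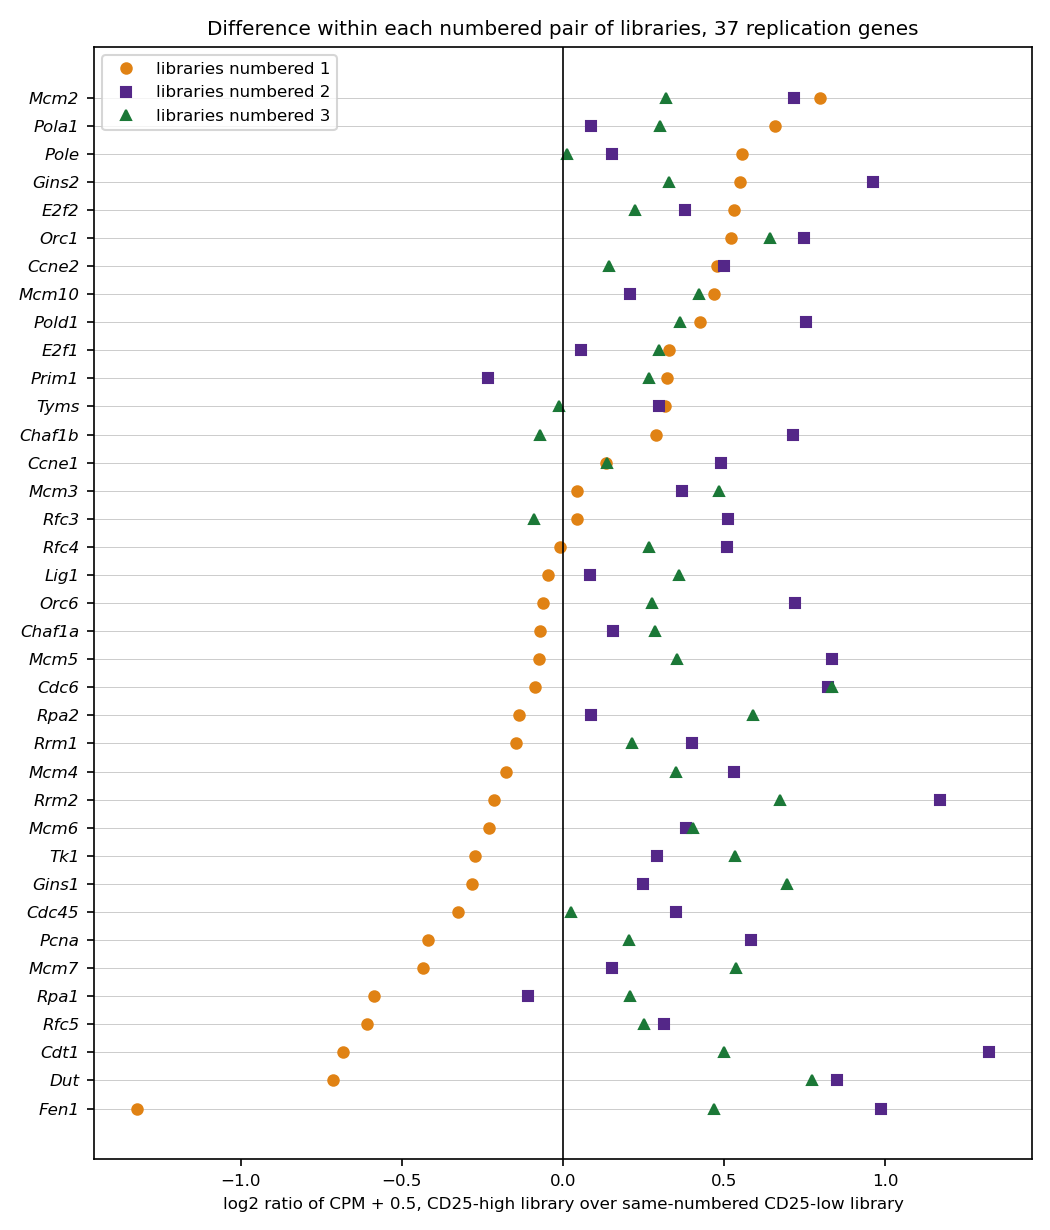
Log2 ratio of CPM + 0.5 of the CD25-high over the same-numbered CD25-low library (x axis) for each of the 37 genes (y axis, ordered by pair 1), with circles, squares and triangles for libraries numbered 1, 2 and 3. The circles straddle 0, with 16 of 37 above it, while 35 squares and 34 triangles lie above 0.

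Without both libraries numbered 1, a setting also added after seeing the data, Rrm2 rose by 0.91 ± 0.18 (adjusted p = 0.0188) and Dut rose by 0.81 ± 0.17 (adjusted p = 0.0276), the 2 calls among the 37 genes, where 0.79% of the 13420 genes tested were called higher. The median was then 0.35, with 36 of 37 estimates positive, and 15 genes were higher at an unadjusted p under 0.05 (background 6.62%). With the number as a block and pair 1 left out, Rrm2, Cdc6 and Dut were called (adjusted p = 0.0253, 0.0357 and 0.0241), where 1.07% of genes were called higher and 7.98% were higher at an unadjusted p under 0.05. In pair 1 Rrm2, Cdc6 and Dut were lower in CD25-high, so larger estimates without that pair were fixed in advance. The counts of both fits restate the pair pattern and are no separate support for it. The calls therefore depend on which pairs enter: Mcm2 was called with all 3 pairs in the blocked fit and not without pair 1, and Rrm2, Cdc6 and Dut were called only in fits without pair 1, among those run.

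The levels of the genes relative to each other can be compared per length of exon (CPM per kb). Rrm2 had the highest level in both groups, 192 in CD25-high and 130 in CD25-low. It was followed in CD25-high by Pcna (101), Mcm4 (101), Dut (100.3) and Mcm6 (90.6), and differences among these were not tested. E2f1 was the lowest, at 4.71 and 4.001, below its relative E2f2 at 58.6 and 46.1. Pold1, at 6.25 and 4.35, was the next lowest. Subunits of 1 complex were not at equal levels: Mcm4 and Mcm6 (86.5 and 80.8 in CD25-low) lay above Mcm3 and Mcm5 (46.8 and 37.1), and these above Mcm7 and Mcm2 (26.7 and 16.9), with the same order in CD25-high. Rrm1, at 34.3 and 30.9, was below Rrm2. The exonic length counts every annotated exon, so a gene with many annotated exons has a lower value per kb, as for Rrm1 (11012 bases) and Mcm2 (6956 bases, against 4426 for Mcm7). Without division by length, Mcm2 had a mean of 180 CPM in CD25-high and 118 in CD25-low, and Mcm7 had 127 and 118. The last place of Mcm2 thus rests on its length in CD25-high, while in CD25-low Mcm2 and Mcm7 were level without that division.

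**Figure D5:**
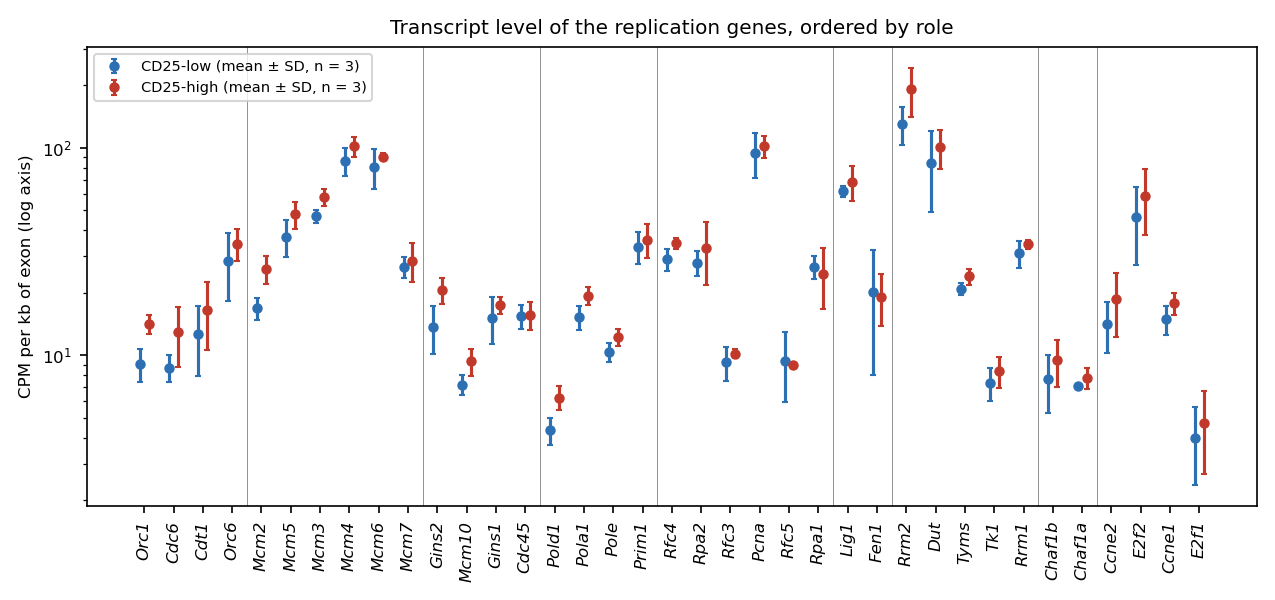
Mean CPM per kb of exon (y axis, log axis) of the 37 genes in CD25-low and CD25-high libraries (bars ± SD, n = 3 each), ordered by role, with vertical lines between roles. Rrm2 is the highest at 192 and 130, E2f1 the lowest at 4.71 and 4.001.

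The 12 genes with an E2F word in a promoter window all had positive log2 fold changes, with a median of 0.35 and a range of 0.10 to 0.64. Of the 20 genes with a window but no such word, 17 were positive, with a median of 0.22 and a range of −0.11 to 0.62. The 5 genes without a window were all positive, with a median of 0.24. The ranges of genes with and without a word overlapped almost wholly. Orc1, with 1 match, had the largest estimate, and Mcm2, whose printed window holds no match, had one of the largest. Mcm7 and Mcm6, with 2 and 3 matches, had 0.10 and 0.16, and the 3 negative estimates belonged to genes without a match. Whether a match goes with the fold change was not tested.

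The 3 related gene lists were read in the same way. Of 51 other replication genes, 0 were called, 35 had a positive estimate and the median was 0.09. Their smallest p-values among positive estimates belonged to Uhrf1, which guides maintenance methylation to new DNA (0.50 ± 0.20), Dna2 (0.47 ± 0.26), Atad5 (0.29 ± 0.17) and Pola2 (0.33 ± 0.22), and among negative ones to Pold4 (−1.24 ± 0.51), Mcm9 (−0.59 ± 0.25), the mitochondrial kinase Tk2 (−1.22 ± 0.57) and Asf1a (−0.35 ± 0.28). Pold4 and Tk2 were both under 7 CPM in every library. In this list 27, 38 and 31 of the 51 genes were higher in pairs 1, 2 and 3, so pair 1 again had the fewest.

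Of 16 E2F and retinoblastoma regulators, 0 were called, 11 had a positive estimate and the median was 0.27. E2f8, a repressive E2F, had 293, 317 and 258 CPM against 202, 149 and 225, without overlap, and a difference of 0.59 ± 0.21 (adjusted p = 0.318). Skp2, Tfdp1 and Cdc25a differed by 0.59 ± 0.22, 0.56 ± 0.21 and 0.62 ± 0.28, and Tfdp2, a partner of E2F proteins, by −0.91 ± 0.43. Rbl2, a relative of the retinoblastoma protein, differed by −0.39 ± 0.21, and E2f5 and E2f6 by −0.24 ± 0.42 and −0.08 ± 0.31. In pairs 1, 2 and 3, 10, 12 and 12 of the 16 were higher.

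Of 22 mitosis genes, 0 were called, 19 had a positive estimate and the median was 0.18. Ccnb1, a mitotic cyclin, Aurka and Plk1, mitotic kinases, and Ube2c differed by 0.58 ± 0.22, 0.58 ± 0.23, 0.62 ± 0.24 and 0.41 ± 0.20, and Ccnb2, Cenpe and Cenpf by −0.15 ± 0.20, −0.15 ± 0.24 and −0.07 ± 0.22. In pairs 1, 2 and 3, 12, 19 and 20 of the 22 were higher, the same ordering of pair 1 behind the other pairs as in the 37 genes. Whether the lists differ from one another was not tested.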

How the data were processed

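RNA of 6 libraries of sorted CD4+ T cells, 3 CD25-high and 3 CD25-low, went through the NuGEN Ovation amplification kit (RNA-Seq System v2), per the labels' protocols. The authors deposited raw counts of reads, whole numbers by Ensembl gene and library. The submitters' processing notes name Novoalign, DESeq2 and the builds hg19 and mm10, with no version or role. For the counting tool, annotation, strand setting and multiply matching reads, the entry is: not given in the sources used here. Row totals started at 10. GENCODE M21 for mouse (GRCm38, the assembly of mm10) named 15169 of the 15445 identifiers, and its coordinates and exonic lengths are used here. The other 276 had no match.

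In R 4.3.3, edgeR 4.0.16 fitted quasi-likelihood models with TMM factors after filterByExpr (minimum count 10, minimum total 15), which kept 12987 genes. The model held the group alone, and genes were called at 0.05 after Benjamini-Hochberg adjustment over all tested genes. SE is the log2 fold change divided by the square root of F. Alternatives were a replicate block, limma voom (3.58.1), DESeq2 (1.42.0), other scalings and filters, and leaving out libraries. The procedure was checked on simulated counts. These held no effect of the library number, and their changes were larger than the median difference of the replication genes. They therefore do not check the library-number terms under such an effect, or differences as small as that median.

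Same-numbered libraries deviated together over the 2000 most variable genes (correlations 0.34, 0.18 and 0.16 for numbers 1, 2 and 3), though CD25-high library 2 also correlated with CD25-low library 3 (0.13). The numbers were therefore taken to pair the libraries. Over the 37 genes alone the same-number correlations were 0.26, −0.17 and 0.37, and CD25-high library 3 correlated with CD25-low library 2 at 0.29. For these genes CD25-low library 2 thus went with CD25-high library 3 and not with the library of its own number. The blocked fits and the pair counts depend on this pairing. The labels do not say what a number stands for.

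The members and all gene lists were chosen with earlier results of these data known. All members are named. Of the 3 related lists, up to 4 genes with the smallest p in each direction are named, and of marker lists the 2 most abundant, with further markers named after their values were seen. Promoter windows come from RefSeq.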

Additional observations from a re-analysis of the deposited data

How the results depend on the processing

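The replicate block raised the calls over all genes from 85 to 601 and those among the 37 genes from 0 to 1, and DESeq2 called 369 genes. The group-only fit gave 22 to 130 calls over all genes without 1 library and 380 without both libraries numbered 1, with 0 and 2 calls among the 37. With the block and without pair 1, 2 or 3 the calls were 461, 486 and 536 over all genes, 3, 0 and 1 among the 37, and 0, 1 and 1 among the E2F and retinoblastoma regulators: Tfdp2 fell without pair 2 (−1.52, adjusted p = 0.0321) and E2f8 rose without pair 3 (0.82, adjusted p = 0.0203). The library number 1 term called 2 of the 37, and 1 with library size as the only scaling, where the share of all tested genes is not given. The other replication genes and the mitosis genes had 0 calls in every setting run. The median over the 37 genes stayed between 0.13 and 0.35 in all settings run and was lowest with the block and without pair 2.

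Some estimates near 0 changed sign. Fen1 was −0.07 in the group-only fit, 0.067 with the replicate block and 0.080 by limma voom, and Rfc5 was 0.0049 by limma voom. Without 1 library, or without both libraries numbered 1, the group-only estimates ran from −0.039 to 0.34 for Mcm7, −0.034 to 0.39 for Pcna, −0.14 to 0.56 for E2f1, −0.088 to 0.17 for Cdc45, −0.041 to 0.22 for Prim1, −0.011 to 0.22 for Rfc3, −0.24 to 0.28 for Rfc5, −0.29 to 0.13 for Rpa1, −0.023 to 0.46 for Rpa2 and −0.34 to 0.74 for Fen1. With the replicate block and 1 pair left out, signs changed without pair 1 for Rfc5 (0.28), Rpa1 (0.047) and Fen1 (0.74), without pair 2 for Pcna (−0.12), Cdc45 (−0.16), Cdt1 (−0.10) and Rfc3 (−0.033), and without pair 3 for Mcm7 (−0.14), Gins1 (−0.011) and Rpa2 (−0.019). Among genes that kept their sign without any 1 library, Dut ran from 0.06 to 0.65 and Cdt1 from 0.08 to 0.72 in those fits. None of the 12 genes that changed sign was called in any setting. With 3 libraries per group and SEs of 0.18 to 0.41 for the 37 genes, a difference of the size of the median, 0.24, is not detectable for a single gene.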
